A study of Mus musculus with 32 samples.

Results

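PolyA RNA of wild-type (WT) mouse embryos was compared between late 2-cell embryos, collected 28 hours after fertilization, and late 1-cell embryos, collected after 12 hours. The comparison rests on 4 of the 32 libraries of the series, 2 at each stage, chosen by the stage, strain and library type in their labels. All 4 came from embryos of the B6 strain, and their descriptions call each a single embryo and a control of the Dppa4 arm. The rest of the series holds embryos with mutant alleles of Dppa2 or Dppa4, a pair of nuclear proteins of early embryos, and total RNA of mutants and controls. In the labels m is the maternal and z the zygotic allele. The 12 mutant polyA libraries, all 2-cell, are m-z+ and m-z- embryos, 3 libraries a group, of the Dppa2 arm (B6/DBA mixed background) and the Dppa4 arm (B6). They entered the fit to estimate the spread between libraries. The 4 total RNA libraries set beside the polyA values are B6 m+z+Dppa4 embryos, 2 at each stage.

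A fertilized mouse egg starts with messenger RNA stored during oocyte growth, while its own genome is nearly silent. Stored messages are translated or kept silent largely through the length of their poly(A) tails, and most are degraded around the first cleavage. The embryo's genome is transcribed in a minor wave in the 1-cell embryo and a major wave in the 2-cell embryo, so the 2 time points stand before and after the major wave. PolyA libraries read tailed RNA. A change in such a library can follow the amount of an RNA or its tail, and these could not be told apart in the polyA values alone.

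Levels are given as FPKM, a normalized fragment count which is relative to the rest of a library and scaled by gene length. The depth of the libraries is unknown. FPKM summed to 548245 and 539978 in the WT 1-cell libraries and to 624344 and 651216 in the WT 2-cell libraries, with 10842, 11218, 13387 and 13212 genes at 1 FPKM or more. On the log2(FPKM + 1) scale the replicates correlated across genes at r = 0.972 at the 1-cell and 0.913 at the 2-cell stage, against a mean of 0.681 between stages. Genes are not independent replicates. The mean difference between replicates was 0.36 at the 1-cell and 0.66 at the 2-cell stage. Each replicate is labelled as a single embryo. The labels do not say whether the embryos of a stage came from separate litters or collections. The p-values rest on the spread between libraries within groups, pooled over the 16 polyA libraries fitted. Most of these are mutant 2-cell libraries, so the p-values do not measure the spread of the WT embryos alone.

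The RNA of 18506 genes was tested in limma, and 3225 rose (17.4%) and 1559 fell (8.42%) from the 1-cell to the 2-cell stage at an adjusted p under 0.05. In every one of these genes both libraries of one stage lay above both of the other. With 2 libraries a stage this can also occur without a call, as for Dppa3 (limma adjusted p = 0.807). Its share over all genes tested was not counted, so it adds no support to the calls. The median log2 difference over all genes tested was 0.23, on the log2(FPKM + 1) scale used for every difference here. It was 2.74 among the genes that rose and -2.23 among those that fell. Changes of 16-fold or more were found in 611 rises and 77 falls. With median-ratio scaling, which moved the overall median to 0.02, 2805 genes rose and 2355 fell. Leaving out WT 1-cell replicate 1 gave 2024 rises and 738 falls, WT 1-cell replicate 2 gave 2108 and 694, WT 2-cell replicate 1 gave 2286 and 901, and WT 2-cell replicate 2 gave 2421 and 900.

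**Figure D1:**
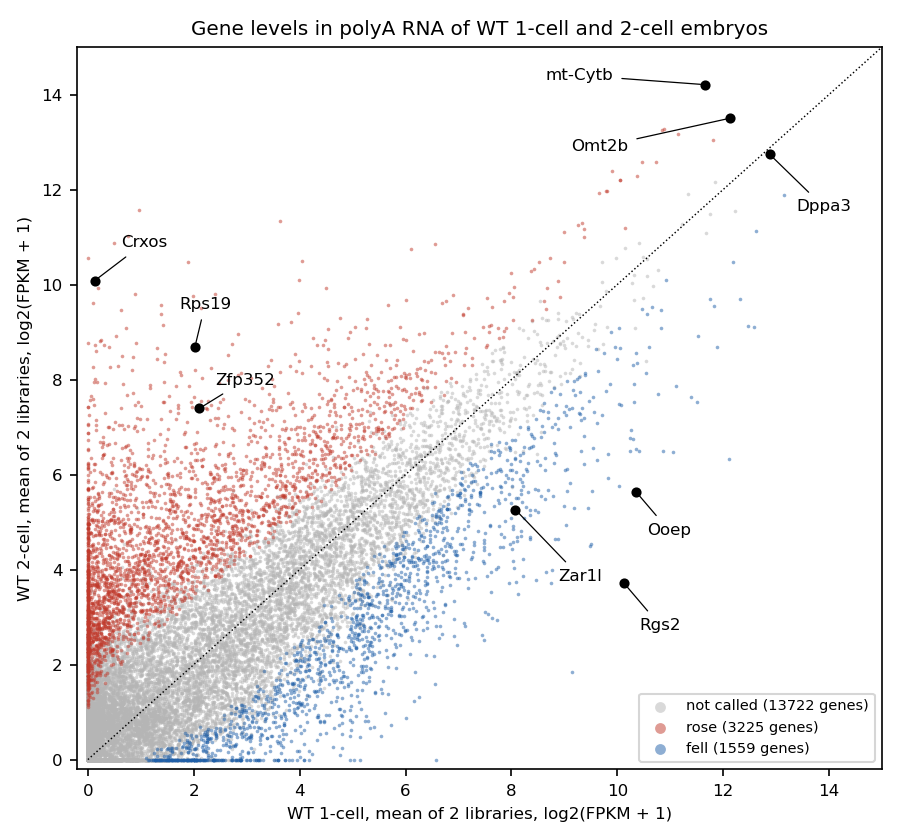
Mean log2(FPKM + 1) of each of the 18506 tested genes in the 2 WT 1-cell libraries (horizontal axis) and the 2 WT 2-cell libraries (vertical axis), with the 3225 genes that rose in red, the 1559 that fell in blue and the line of equal levels dotted. Crxos, Rps19 and Zfp352 lie far above the line, Ooep, Zar1l and Rgs2 far below it, and Dppa3 on it.

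The 4 marker genes of the comparison were examined first. Zfp352 (ENSMUSG00000070902, mm10, chr4:90218820-90225702, forward strand), a zinc finger gene transcribed at the 2-cell stage, measured 2.38 and 4.49 FPKM in 1-cell embryos and 130 and 214 FPKM in 2-cell embryos. Rps19 (chr7:24884371-24889806, forward strand), a protein of the small ribosomal subunit, measured 1.93 and 4.64 FPKM and then 443 and 385 FPKM. Both rose, by 5.29 (SE 0.41, limma adjusted p = 5.12e-08) and 6.67 (SE 0.32, limma adjusted p = 2.23e-10). Ooep (chr9:78376109-78378725, reverse strand), a member of the subcortical maternal complex of the egg, measured 1299 and 1324 FPKM and then 40.9 and 57.7 FPKM. Zar1l (chr5:150507055-150518164, reverse strand), which binds stored messages in oocytes, measured 245 and 295 FPKM and then 38.6 and 36.0 FPKM. The stages did not overlap for either gene. Ooep fell by 4.73 (SE 0.55, limma adjusted p = 4.86e-06) and Zar1l by 2.82 (SE 0.41, limma adjusted p = 5.85e-05). In the mutant 2-cell libraries the medians were 193 FPKM for Zfp352, 275 FPKM for Rps19, 53.8 FPKM for Ooep and 37.0 FPKM for Zar1l.

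The gene with the largest rise among annotated genes that are neither predicted models nor pseudogenes was Crxos, a homeobox gene. At chr7:15882617-15904020 (forward strand), Crxos measured 0.0579 and 0.134 FPKM in 1-cell and 1182 and 995 FPKM in 2-cell embryos, a rise of 9.95 (SE 0.44, limma adjusted p = 8.59e-11). The next largest rises were those of Obox6, Cd63, Timd2, Rfpl4b, Gabpa, Obox8, Trim43b, Vimp and Spic. Cd63, a tetraspanin of endosome membranes, was listed at 0 in both 1-cell libraries and at 372 and 512 FPKM in the 2-cell libraries. Timd2, a cell surface receptor, went from 0.218 and 0 FPKM to 541 and 333 FPKM. Gabpa and Spic both encode transcription factors of the ETS family. Gabpa measured 0.327 and 0.136 FPKM and then 424 and 419 FPKM, and Spic 0.156 and 0 FPKM and then 301 and 312 FPKM. Vimp, a selenoprotein of the endoplasmic reticulum, rose from 1.00 and 2.35 FPKM to 714 and 798 FPKM. All 10 genes were thus at or under 2.35 FPKM in every WT 1-cell library and at 301 FPKM or more in every WT 2-cell library.

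In all, 127 genes were listed at 0 in both 1-cell libraries and at 10 FPKM or more in both 2-cell libraries, and 125 of them passed the test. Of the 127, 74 were protein coding. Only 14 genes showed the reverse, and all 14 passed. Both sets were chosen by the same values that the fit tests, so these passes add no support to the calls.

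The largest falls were those of C86695, Rgs2, Cldn8, Hist1h2ba, Oas1h, Casp8, Aspm, Oas1e, Ctbp2 and Asz1. Rgs2, a brake on signalling through G proteins, measured 1084 and 1140 FPKM in 1-cell and 9.14 and 16.2 FPKM in 2-cell embryos (limma log2 difference -6.40, SE 0.51, adjusted p = 7.22e-08). Aspm, a protein of spindle poles, went from 826 and 618 FPKM to 13.4 and 34.5 FPKM. Oas1h and Oas1e belong to the oligoadenylate synthetase family known from antiviral defence. They stood at 439 and 421 FPKM and at 908 and 581 FPKM, and then at 8.93 and 16.3 FPKM and at 22.5 and 21.9 FPKM. C86695 and Cldn8, a tight junction claudin, were listed at 0 in both 2-cell libraries. In total RNA 9 of these 10 genes were lower by 2.02 log2 units or more, and Hist1h2ba, a histone H2B of germ cells, was lower by 0.35. Hist1h2ba measured 48.6 and 42.9 FPKM and then 0.0463 and 0.890 FPKM in polyA RNA, against 65.7 and 79.7 FPKM and then 57.5 and 55.4 FPKM in total RNA. Ctbp2 and Asz1 did not pass when only the 4 WT libraries were fitted (limma adjusted p = 0.0805 and 0.076).

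**Figure D2:**
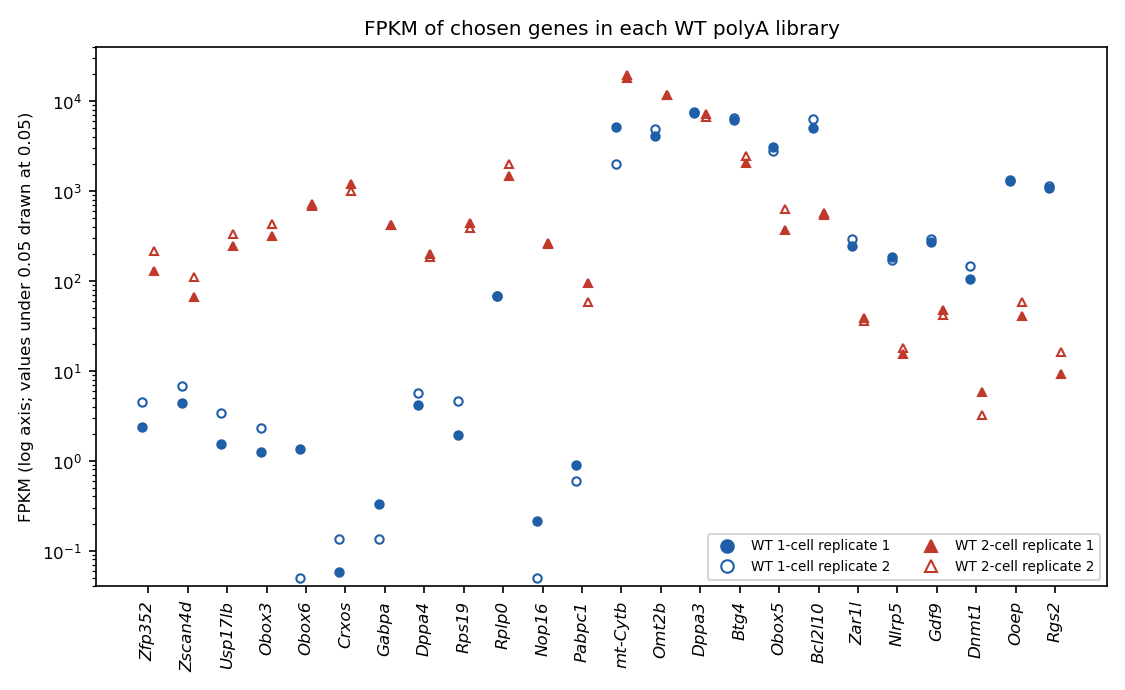
FPKM on a log axis of 24 genes named in the text in each of the 4 WT polyA libraries, with circles for the 1-cell and triangles for the 2-cell stage, filled for replicate 1 and open for replicate 2, and values under 0.05 drawn at 0.05. The 2-cell triangles lie above the circles from Zfp352 to Omt2b and below them from Dppa3 to Rgs2, and for Dppa3 the symbols nearly coincide.

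The genes of highest level differed between the stages. In 1-cell embryos the 5 highest means were those of Mphosph6, Dppa3, Btg4, Gm15698 and Bcl2l10. Dppa3, known as Stella, which protects the maternal genome from demethylation, stood at 7435 and 7617 FPKM before and 7120 and 6581 FPKM after cleavage. Its log2 difference of -0.14 (SE 0.30, limma adjusted p = 0.807) did not pass. Btg4, an adaptor that brings the deadenylase to stored messages, fell from 6095 and 6460 FPKM to 2056 and 2429 FPKM (limma log2 difference -1.49, SE 0.36, adjusted p = 0.0056). It still stood among the abundant RNAs of the 2-cell embryo. Bcl2l10, an oocyte member of the Bcl-2 family, fell from 5057 and 6303 FPKM to 572 and 539 FPKM. Mphosph6, a cofactor of the RNA exosome, fell from 8564 and 9576 FPKM to 3658 and 3956 FPKM. The calls of Btg4 without WT 2-cell replicate 1 (adjusted p = 0.0534), and of Mphosph6 without WT 1-cell replicate 2 (0.0771) or WT 2-cell replicate 1 (0.068), missed the threshold in limma.

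In 2-cell embryos the 5 highest means were those of mt-Cytb, Omt2b, Gm10925, mt-Atp6 and mt-Nd1. Gm10925 is a nuclear copy of mitochondrial sequence on chromosome 1, and its values followed those of mt-Atp6, so its level is uncertain. Omt2b, an oocyte-enriched gene, rose from 4128 and 4900 FPKM to 11576 and 11633 FPKM. Its log2 difference was 1.37 (SE 0.35, limma adjusted p = 0.00762). With median-ratio scaling its adjusted p was 0.0658, and without WT 1-cell replicate 1 it was 0.0701.

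Genes of the 2-cell stage were described first among the gene groups. Of 26 tested members 20 rose and 1 fell, with 17.4% rising and 8.42% falling over all genes tested, and the median log2 difference was 3.62 against 0.23. Total RNA of the B6 controls gave a median of 3.89 for the same members. Pramel6, of the PRAME family of early embryos, went from 0 and 1.36 FPKM to 187 and 149 FPKM. Its neighbour Pramel7 went from 0 in both to 60.8 and 92.8 FPKM. Both rose, by 6.77 (SE 0.60) and 6.25 (SE 0.55), with limma adjusted p of 2.51e-07 and 2.11e-07. Usp17lb, a deubiquitinase of a repeated family, rose from 1.53 and 3.41 FPKM to 244 and 334 FPKM, by 6.42 (SE 0.57, limma adjusted p = 2.61e-07). Ubtfl1, a relative of an RNA polymerase I factor, went from 0 and 0.655 FPKM to 101 and 93.4 FPKM, and Tdpoz1 from 0.103 and 0 FPKM to 49.7 and 53.8 FPKM.

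The Zscan4 genes lie in a cluster on chromosome 7 and encode SCAN and zinc finger proteins tied to telomere maintenance. All 5 tested copies rose. Zscan4d stood highest, at 4.39 and 6.72 FPKM and then 67.0 and 111 FPKM, and Zscan4f went from 0 and 1.08 FPKM to 51.7 and 68.6 FPKM. Copies of the Zscan4, Usp17l, Tdpoz and Obox families are nearly alike in sequence, and reads could be divided among them in counting, so the value of a single copy is uncertain. Tcstv1 measured 93.3 and 96.9 FPKM and then 78.1 and 138 FPKM, and Sp110 measured 95.2 and 84.0 FPKM and then 51.3 and 64.3 FPKM. Neither passed. The single fall was that of Arg2, a mitochondrial arginase, from 500 and 463 FPKM to 193 and 218 FPKM (limma log2 difference -1.22, SE 0.35, adjusted p = 0.0162), and it did not pass without any one of the 4 libraries (adjusted p from 0.0558 to 0.102). Without any one library 19 to 21 members rose.

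Promoter windows from RefSeq on GRCm38.p6, running 250 bases before to 50 after an annotated start, were found for 17 of the 26. The letters TATAAA, read on both strands, stood in 7 of the 17 (41.2%), against 10.4% of the 11189 tested genes with a window and 13.6% of all 32851 windows. GGGCGG stood in 1 of the 17 (5.9%), against 61.1% of the tested genes. The windows below, of 30 bases, hold the match in capitals and are shown for 2 copies of the Zscan4 family, nearly alike there, and 1 gene of another family. Zscan4b is at chr7:10905064-10905093 (reverse strand) with the match 31 bases before the start, Zscan4f at chr7:11397872-11397901 (forward) with 31, and Usp17lb at chr7:104842597-104842626 (reverse) with 31.
Zscan4b: gaagccagaggcTATAAAagggaaccaatc
Zscan4f: gaagccaggcgcTATAAAagggaaccaatc
Usp17lb: acaaaactgaagTATAAAaggctgagcatt
The other 4 matches lay farther out, 54 bases before the start in Zscan4c, 65 in Zscan4d, 88 in Usp17lc and 110 in Usp17ld. Copies within a family share ancestry, so they are not independent of each other. In the same windows CCAAT stood in 70.6% of the 2-cell genes and 44.1% of the tested genes, TAATCC in 17.6% and 7.6%, and CGGAAG in 17.6% and 31.4%.

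The Obox genes, homeobox genes of oocytes and early embryos clustered on chromosome 7, divided in direction. Of 7 tested members 3 rose (42.9%, against 17.4% of all genes tested) and 4 fell (57.1%, against 8.42%). None was left without a call. Obox6 went from 1.36 and 0 FPKM to 720 and 682 FPKM, Obox8 from 1.07 and 0 FPKM to 537 and 438 FPKM, and Obox3 from 1.25 and 2.32 FPKM to 319 and 431 FPKM. Their rises were 8.83 (SE 0.55), 8.40 (SE 0.63) and 7.09 (SE 0.62), with limma adjusted p of 3.64e-09, 4.24e-08 and 1.92e-07. The other 4 began among the abundant RNAs of the 1-cell embryo. Obox1 went from 2925 and 2867 FPKM to 187 and 181 FPKM, Obox2 from 1946 and 2345 FPKM to 96.2 and 79.3 FPKM, Obox7 from 630 and 537 FPKM to 44.6 and 32.5 FPKM, and Obox5 from 3087 and 2794 FPKM to 371 and 624 FPKM. These falls ran from -2.61 for Obox5 to -4.60 for Obox2, with limma adjusted p between 6.2e-07 and 0.00102. The summed FPKM of the family dropped from 8592 and 8545 to 2274 and 2468. All 7 calls held without any one of the 4 libraries. The annotated spans of Obox1, Obox2 and Obox3 overlap, which adds to the uncertainty of their reads.

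Among 39 tested transcription factors of the early embryo 13 rose (33.3%, against 17.4% of all genes tested) and 2 fell (5.1%, against 8.42%). Their median was 0.85. After Gabpa, the largest rises were those of Zscan5b, from 2.35 and 2.17 FPKM to 133 and 232 FPKM, and of Dppa4. Dppa4, the gene whose alleles the Dppa4 arm varies, stood at 4.13 and 5.68 FPKM in WT 1-cell and 201 and 184 FPKM in WT 2-cell embryos. Its log2 difference was 5.05 (SE 0.37, limma adjusted p = 3.41e-08). Yy1, a zinc finger regulator, rose from 0.111 and 0.883 FPKM to 43.9 and 37.9 FPKM, and Klf5, a factor of the first lineages, from 0.0753 and 0 FPKM to 13.2 and 18.7 FPKM. The 2 falls were those of Esrrb, an orphan nuclear receptor, from 35.5 and 42.8 FPKM to 7.83 and 2.46 FPKM, and of Gata3. Esrrb did not pass without WT 2-cell replicate 2 (limma adjusted p = 0.0774), and Gata3 did not pass without any one library (adjusted p from 0.0781 to 0.238). The count of rises was 7 without WT 1-cell replicate 1 and 8 without WT 2-cell replicate 1.

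The ribosomal protein genes rose nearly throughout. Of 47 tested genes of the large subunit 43 rose (91.5%) and 1 fell (2.1%), with a median log2 difference of 2.63. Of 32 genes of the small subunit 31 rose (96.9%) and none fell, with a median of 2.96. Over all genes tested 17.4% rose and 8.42% fell. The summed FPKM of the large subunit went from 1107 and 1349 to 8684 and 9132, and that of the small subunit from 842 and 1066 to 8001 and 7257. After Rps19 the largest rises in the small subunit were those of Rps27, from 3.48 and 1.38 FPKM to 215 and 130 FPKM, and Rpsa, from 0.126 and 0.534 FPKM to 52.8 and 44.1 FPKM. In the large subunit Rpl22 rose from 3.47 and 3.28 FPKM to 182 and 191 FPKM and Rpl9 from 2.65 and 5.34 FPKM to 241 and 146 FPKM. Rplp0, of the ribosomal stalk, reached the highest values of those named, 1485 and 2006 FPKM from 68.8 and 67.5 FPKM. The one fall was that of Rpl17, from 75.3 and 75.0 FPKM to 46.5 and 24.4 FPKM (limma adjusted p = 0.0427), which was lost without WT 1-cell replicate 1 (0.163), WT 1-cell replicate 2 (0.16) or WT 2-cell replicate 2 (0.345). Ribosomal protein genes have many processed pseudogenes, and reads shared with them make single values uncertain. Of 1590 tested processed pseudogenes of all families, 344 rose and 63 fell, where 17.4% and 8.42% of all genes tested did.

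Total RNA gave smaller differences for the same genes. The median in total RNA of the B6 controls was 0.42 for the large and 1.11 for the small subunit, against 0.01 over all genes tested. Of the 43 and 31 that rose in polyA RNA, 32 and 24 were higher at the 2-cell stage in total RNA. Rpl23a measured 1.10 and 2.50 FPKM and then 102 and 79.5 FPKM in polyA RNA, but 97.8 and 100 FPKM and then 119 and 58.3 FPKM in total RNA. Rps19 measured 4.17 and 1.56 FPKM and then 65.5 and 37.5 FPKM in total RNA. The 2 total RNA libraries of the 2-cell stage were unlike, with summed FPKM of the large subunit of 2535 and 1381 against 1358 and 1315 at the 1-cell stage, and of the small subunit of 1649 and 905 against 804 and 783. The total RNA table was normalized separately, so no test was made between the tables.

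**Figure D3:**
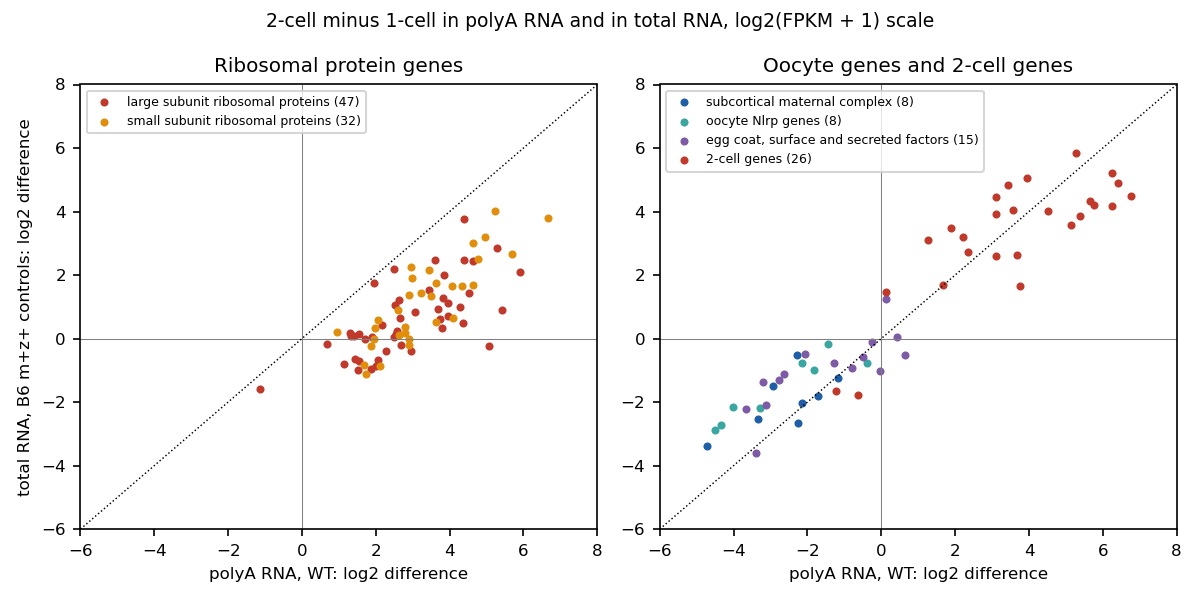
The log2 difference of each list member between 2-cell and 1-cell embryos in polyA RNA of WT embryos (horizontal axis) and in total RNA of B6 m+z+ controls (vertical axis), with ribosomal protein genes on the left and oocyte and 2-cell genes on the right, and equal differences dotted. All 79 ribosomal protein genes lie below the dotted line on the left, while 14 of the 26 2-cell genes do on the right.

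Messages of the translation machinery often begin with a C followed by a run of pyrimidines, an element through which their translation is controlled. In the RefSeq windows a C with at least 4 further pyrimidines, within 5 bases of an annotated start, was found for 28 of 58 ribosomal protein genes with a window (48.3%). The share was 23.2% of the tested genes, 23.7% of those that rose, 21.8% of those that fell and 18.3% of all windows. The letters CGGAAG, which fit the core bound by ETS factors, stood on either strand in 69.0% of ribosomal protein genes, 64.9% of ribosome assembly genes, 31.4% of tested genes, 38.2% of those that rose and 320 of the 1067 that fell. TATAAA stood in 10.3% of the ribosomal protein genes. The 4 longest runs that lie whole within 15 bases of the start are printed with the run in capitals, beside the marker Rps19, which has none there: Rpl15 (chr14:18270972-18271001, reverse strand), Fau (chr19:6057932-6057961, forward), Rpl35a (chr16:33056467-33056496, forward), Rps10 (chr17:27635230-27635259, reverse) and Rps19 (chr7:24884577-24884606, forward).
Rpl15: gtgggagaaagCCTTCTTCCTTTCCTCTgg
Fau: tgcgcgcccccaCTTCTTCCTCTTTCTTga
Rpl35a: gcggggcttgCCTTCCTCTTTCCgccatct
Rps10: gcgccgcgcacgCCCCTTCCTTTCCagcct
Rps19: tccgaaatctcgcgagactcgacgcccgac
Rpl15, with 17 pyrimidines, measured 34.2 and 36.6 FPKM and then 54.5 and 60.0 FPKM and did not pass (log2 difference 0.68, SE 0.41, limma adjusted p = 0.254). Fau, with 16, rose by 1.87, Rpl35a and Rps10, with 13 each, by 2.53 and 2.79, and Rps19, with none, by 6.67. These 5 genes were chosen by run length or as a marker, so no relation of run length to rise can be read from them, and none was tested. The printed Rps19 window lies inside the span given above for the gene and does not reach its edge. The lack of a run in Rps19 thus holds for the annotated RefSeq starts only. A match is a description of these letters and not of a used site.

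Genes of ribosome assembly rose in 36 of 68 members tested (52.9%, against 17.4% of all genes tested) and fell in 1. Their median was 1.52 (0.10 in total RNA). Nop16, a nucleolar protein, had the largest difference, from 0.211 and 0 FPKM to 254 and 262 FPKM (7.88, SE 0.47, limma adjusted p = 2.56e-09). Polr1c, a subunit shared by RNA polymerases I and III, rose from 2.63 and 3.24 FPKM to 163 and 177 FPKM, and Nob1, which cleaves the precursor of the small subunit's RNA, from 2.37 and 1.70 FPKM to 56.4 and 67.1 FPKM. The fall was that of Bms1, a GTPase of the same pathway, from 39.6 and 52.4 FPKM to 8.61 and 4.95 FPKM. Bms1 did not pass without WT 1-cell replicate 2 (limma adjusted p = 0.0654) or WT 2-cell replicate 2 (0.0653). The count of rises was 22 without WT 1-cell replicate 1, 19 without WT 1-cell replicate 2 and 22 without WT 2-cell replicate 1.

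Of 52 translation factors 20 rose (38.5%, against 17.4% of all genes tested) and 5 fell (9.6%, near the 8.42% of all). Eif1a, which helps scan for the start codon, went from 0.888 and 0 FPKM to 55.1 and 76.2 FPKM. Pabpc1, the general poly(A)-binding protein, rose from 0.904 and 0.598 FPKM to 93.9 and 57.7 FPKM, by 5.42 (SE 0.49, limma adjusted p = 2.84e-07). Its oocyte relative Pabpc1l fell from 45.1 and 54.6 FPKM to 0.506 and 3.51 FPKM, a difference of -4.28 (SE 0.96, limma adjusted p = 0.0031), which gave 0.0502 without WT 2-cell replicate 1. The stages did not overlap for either, and the order of the pair was opposite at the 2 stages. Eif1b, a start codon factor, had the largest fall of the list, from 724 and 759 FPKM to 65.2 and 135 FPKM (limma adjusted p = 9.78e-05). The count of falls was 2 or 3 without any one of the 4 libraries and 8 with median-ratio scaling.

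All 13 genes encoded by the mitochondrial genome rose (against 17.4% of all genes tested), by 1.83 (mt-Nd6) to 2.56 (mt-Cytb). Their median was 2.15, and 1.71 in total RNA. mt-Cytb, of respiratory complex III, stood at 5133 and 2010 FPKM and then at 18163 and 19713 FPKM. mt-Nd1, of complex I, stood at 3682 and 1409 FPKM and then at 7908 and 10645 FPKM. The 2 WT 1-cell libraries were unlike here, with 23893 and 9786 summed FPKM over the 13 genes, against 66386 and 79644 at the 2-cell stage. Without WT 1-cell replicate 2, the lower one, 6 of the 13 passed, and 4 passed when only the 4 WT libraries were fitted. In total RNA the sums were 12974 and 14517 at the 1-cell and 46739 and 44305 at the 2-cell stage.

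Nuclear genes of the respiratory chain moved both ways. Of 77 tested 30 rose (39.0%, against 17.4% of all genes tested) and 8 fell (10.4%, near the 8.42% of all). The median was 0.93 in polyA RNA and -0.83 in total RNA, so the sign differed between the tables. Cyc1, cytochrome c1, went from 1.02 and 0.775 FPKM to 49.8 and 67.2 FPKM, and Cox7c, of cytochrome oxidase, from 5.69 and 7.17 FPKM to 225 and 111 FPKM. Both rose, by 4.96 (SE 0.56) and 4.43 (SE 0.49). Ndufa8, of complex I, showed the opposite, 71.6 and 78.4 FPKM and then 2.00 and 1.10 FPKM, a difference of -4.92 (SE 0.57, limma adjusted p = 5.4e-06). The falls numbered 13 with median-ratio scaling and 5 without any one of the 4 libraries.

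In glycolysis and pyruvate and lactate metabolism 10 of 29 genes rose (34.5%, against 17.4% of all genes tested) and 1 fell (3.4%, against 8.42%). The oocyte is known to take up pyruvate and lactate rather than glucose. Ldhb, the lactate dehydrogenase subunit abundant in oocytes, fell from 2962 and 2416 FPKM to 199 and 196 FPKM, a difference of -3.75 (SE 0.42, limma adjusted p = 3.6e-06). Ldha, the other subunit, rose from 1.33 and 0.890 FPKM to 10.9 and 18.7 FPKM, and remained under Ldhb at both stages. Mpc2, of the mitochondrial pyruvate carrier, rose from 32.5 and 25.8 FPKM to 504 and 432 FPKM, by 3.96 (SE 0.41, limma adjusted p = 1.65e-06). The count of rises was 5 without WT 1-cell replicate 1, 6 without WT 1-cell replicate 2 and 4 without WT 2-cell replicate 2.

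The subcortical maternal complex lies under the egg surface and is needed for the first divisions. Of its 8 members 7 fell (87.5%, against 8.42% of all genes tested) and none rose (against 17.4%). The median was -2.27 (-1.91 in total RNA). Nlrp5, also called Mater, went from 186 and 169 FPKM to 15.5 and 17.8 FPKM (limma log2 difference -3.34, SE 0.45, adjusted p = 2.84e-05). Nlrp4f went from 556 and 507 FPKM to 70.5 and 67.3 FPKM, Padi6 from 139 and 136 FPKM to 32.5 and 23.8 FPKM, and Zbed3 from 3571 and 3710 FPKM to 741 and 759 FPKM. Zbed3 thus stood well above the other members at both stages. Khdc3 measured 15.3 and 18.6 FPKM and then 5.56 and 8.67 FPKM and did not pass (log2 difference -1.17, limma adjusted p = 0.177). Tle6, from 46.9 and 67.4 FPKM to 9.17 and 15.6 FPKM, missed the threshold without WT 1-cell replicate 2 (0.0868) or WT 2-cell replicate 1 (0.0848). Nlrp2, from 16.6 and 19.8 FPKM to 5.50 and 4.26 FPKM, missed it without any one library (adjusted p from 0.0508 to 0.119).

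Of 8 tested oocyte genes of the Nlrp family outside that complex 6 fell (75.0%) and none rose, and the median was -2.73. Over all genes tested 8.42% fell and 17.4% rose. Nlrp14 went from 814 and 751 FPKM to 78.6 and 78.7 FPKM (limma log2 difference -3.30, SE 0.35, adjusted p = 2.1e-06). Nlrp4b had the largest fall of the family, from 224 and 158 FPKM to 6.04 and 8.81 FPKM. Nlrp9c differed from the others in level, at 1367 and 1655 FPKM and then 1206 and 1105 FPKM, and did not pass. Nlrp4e, from 70.9 and 107 FPKM to 27.3 and 21.1 FPKM, was lost without WT 1-cell replicate 2 (limma adjusted p = 0.132) or WT 2-cell replicate 2 (0.0928), and Nlrp9a without WT 1-cell replicate 1 (0.0833) or WT 2-cell replicate 2 (0.0644).

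Among 15 genes of the egg coat, egg surface and secreted oocyte factors 7 fell (46.7%) and none rose. The shares of all genes tested were 8.42% and 17.4%. Izumo1r, known as Juno, the egg's receptor for sperm, went from 183 and 187 FPKM to 21.3 and 8.65 FPKM (limma log2 difference -3.66, SE 0.83, adjusted p = 0.00319). The oocyte growth factors Bmp15 and Gdf9 went from 1297 and 1240 FPKM to 199 and 169 FPKM, and from 270 and 289 FPKM to 47.0 and 41.6 FPKM. The zona pellucida genes Zp1, Zp2 and Zp3, which encode the egg coat, did not pass. Zp3 measured 70.8 and 87.4 FPKM and then 90.1 and 66.2 FPKM, with overlap of the stages. Oosp1, a secreted oocyte protein, did not pass either, at 3034 and 3887 FPKM and then 3050 and 2689 FPKM, while its relatives Oosp2 and Oosp3 fell by 3.39 and 2.07. Astl, the protease that hardens the egg coat, fell by 3.20, which gave a limma adjusted p of 0.0533 without WT 1-cell replicate 2.

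Other nuclear and cytoplasmic oocyte factors fell in 19 of 31 (61.3%, against 8.42% of all genes tested) and rose in 3 (9.7%, against 17.4%). Their median was -1.96. Oog4 went from 1491 and 1227 FPKM to 81.5 and 97.7 FPKM, Fbxw15 from 1669 and 880 FPKM to 84.1 and 95.6 FPKM, and Fbxo43, the Emi2 inhibitor that holds the egg in meiosis, from 34.9 and 36.9 FPKM to 2.49 and 1.73 FPKM. Oog3, a relative of Oog4, measured 3890 and 3436 FPKM and then 4512 and 4636 FPKM and did not pass. The 3 rises were those of Omt2a, from 3300 and 3904 FPKM to 7998 and 8944 FPKM, Omt2b and Taf4b. Without WT 1-cell replicate 1 none of the 3 passed, and with median-ratio scaling 1 did. The members of these oocyte lists thus did not fall together, and abundant members such as Dppa3, Oosp1, Oog3 and Nlrp9c stayed without a call.

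**Figure D4:**
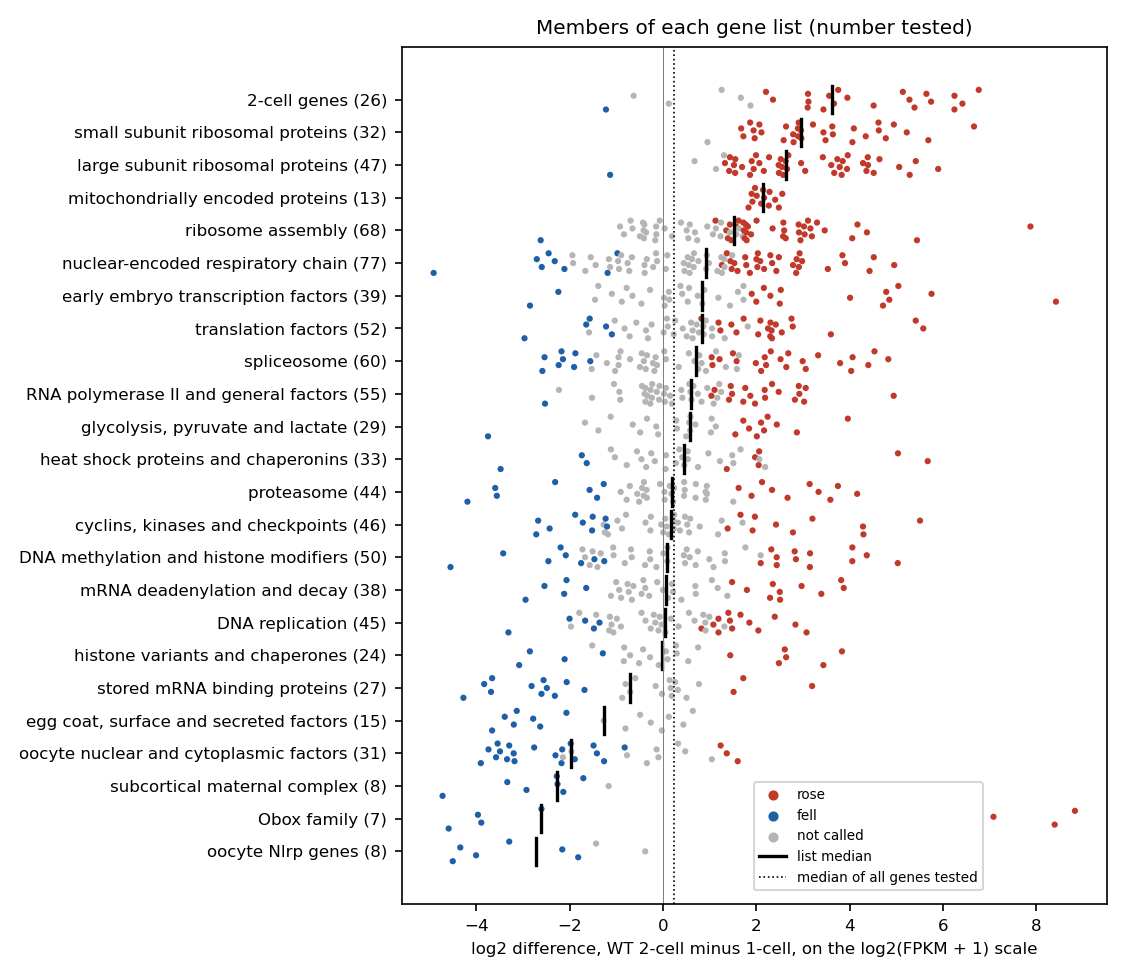
The log2 difference between WT 2-cell and 1-cell embryos of each tested member of 24 gene lists, with rises red, falls blue, genes without a call grey, the list median as a black bar and the median of all genes tested, 0.23, dotted. List medians run from 3.62 for the 2-cell genes to -2.73 for the oocyte Nlrp genes, and the Obox genes divide into 4 falls and 3 large rises.

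Proteins that bind stored messages fell in 11 of 27 genes (40.7%, against 8.42% of all genes tested) and rose in 3 (11.1%, against 17.4%). Dazl, a translation activator of germ cells, went from 512 and 509 FPKM to 41.3 and 37.5 FPKM, and Zar1, a relative of Zar1l, from 95.7 and 103 FPKM to 5.18 and 6.95 FPKM. Both fell, by 3.66 (limma log2 difference -3.66, SE 0.38, adjusted p = 1.62e-06) and 3.83 (-3.83, SE 0.49, 1.59e-05). Pabpn1l, a poly(A)-binding adaptor, went from 207 and 207 FPKM to 17.8 and 12.9 FPKM. Igf2bp1, an mRNA-binding protein, rose from 0 in both to 14.7 and 4.35 FPKM. The rise of Ddx6 did not pass without any one library, and Pabpn1l did not pass with a pseudocount of 0.1 (limma adjusted p = 0.162) or without WT 1-cell replicate 1 (0.0658), WT 1-cell replicate 2 (0.0645) or WT 2-cell replicate 2 (0.0701). The falls numbered 7 without WT 1-cell replicate 1, 4 without WT 1-cell replicate 2 and 7 without WT 2-cell replicate 2.

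Genes of deadenylation and decay rose in 10 of 38 (26.3%, against 17.4% of all genes tested) and fell in 5 (13.2%, against 8.42%), with a median of 0.06 against 0.23. Btg1, Btg3 and Tob1, of the antiproliferative family that also holds Btg4, rose. Btg3 went from 0.322 and 0.205 FPKM to 19.4 and 15.9 FPKM, Btg1 from 0.362 and 0.563 FPKM to 17.2 and 22.3 FPKM, and Tob1 from 2.00 and 1.75 FPKM to 23.2 and 36.7 FPKM. Their limma adjusted p were 0.00452, 1.58e-05 and 2.36e-05. Cnot3, a scaffold subunit of the CCR4-NOT deadenylase, fell from 38.3 and 51.6 FPKM to 8.62 and 5.33 FPKM, while its catalytic subunit Cnot8 rose from 36.7 and 42.2 FPKM to 133 and 93.9 FPKM. Cnot7, the other catalytic subunit of that kind, measured 342 and 442 FPKM and then 235 and 358 FPKM and did not pass. The falls numbered 1 to 3 without any one of the 4 libraries, and the rises 6 without WT 1-cell replicate 1.

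Because the tail is what such libraries select on, the 3' ends of the messages were read for elements that govern it. The last 100 bases of the annotated transcript (GENCODE M21) were taken for 12588 tested genes with a 3' untranslated region of at least that length. TTTTAT or TTTTAAT, the DNA letters of cytoplasmic polyadenylation elements, stood on the sense strand in 19.2% of them, in 17.5% of the genes that rose and in 21.9% of those that fell. Among 751 genes with a 1-cell mean of at least 100 FPKM the share was 27.3%. It was 27.6% in the 340 of these that fell and 27.8% in the 367 without a call. The 205 with the element had a median log2 difference of -0.96 and the 546 without it -1.01. AATAAA or ATTAAA, the letters of polyadenylation signals, stood in 83.1% of rises, 84.4% of falls and 81.6% of all. Of the 205 abundant genes with TTTTAT or TTTTAAT 9 rose and 94 fell, and of the 546 without it 35 rose and 246 fell. A relation of these letters to direction was not tested.

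Windows of 30 bases from 3 abundant messages show one that rose, one that fell and one without a call. Elements and signals are in capitals. Omt2b is at chr9:78329558-78329587, Bcl2l10 at chr9:75351589-75351618 and Dppa3 at chr6:122630242-122630271, all forward strand, in the 3' untranslated region.
Omt2b: ttttaacggTTTTATAATAAAtaaaagttt
Bcl2l10: atTTTTAATaacttcaaattcttAATAAAt
Dppa3: ccagaaatttgtAATAAAagcatttttgtt
Omt2b, which rose, and Bcl2l10, which fell, each carried an element beside a signal. Dppa3 carried no such element in its last 100 bases, and neither did Mphosph6, which fell, or Rplp0, which rose.

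Of 50 tested genes of DNA methylation and histone modification 12 rose (24.0%, against 17.4% of all genes tested), with a median of 0.10 against 0.23. Falls were found in 8 of the 50, a larger share than the 8.42% of all genes tested. Dnmt1, the maintenance DNA methyltransferase, went from 106 and 147 FPKM to 5.85 and 3.19 FPKM (limma log2 difference -4.56, SE 0.69, adjusted p = 8.6e-05). Zfp57, which guards imprints, went from 261 and 240 FPKM to 9.41 and 51.4 FPKM, and Tet3, the oxidase of the paternal genome, from 34.9 and 53.2 FPKM to 4.05 and 11.8 FPKM. Hdac1, a histone deacetylase, showed the opposite, from 2.30 and 2.75 FPKM to 118 and 111 FPKM, a rise of 5.04 (SE 0.47, limma adjusted p = 4.6e-07). The demethylases Kdm4c, from 0 in both to 14.0 and 27.5 FPKM, and Kdm3a, from 0.337 and 0.990 FPKM to 22.5 and 30.6 FPKM, also rose. Tet3 was lost without WT 1-cell replicate 1 (0.0592), WT 1-cell replicate 2 (0.14) or WT 2-cell replicate 1 (0.185), Zfp57 when only the 4 WT libraries were fitted (0.0826), and the falls numbered 3 to 5 without any one library.

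Among 24 histone variants and chaperones 6 rose (25.0%, against 17.4% of all genes tested) and 4 fell (16.7%, against 8.42%), with a median of -0.02 against 0.23. H2afz and H2afv, which encode the 2 forms of H2A.Z, rose from 45.2 and 30.6 FPKM to 479 and 619 FPKM and from 23.0 and 35.0 FPKM to 304 and 333 FPKM. Slbp, which binds the stem-loop of histone messages, fell from 1948 and 1580 FPKM to 164 and 259 FPKM (limma log2 difference -3.08, SE 0.44, adjusted p = 4.91e-05). H3f3b, a gene of histone H3.3, measured 1146 and 1775 FPKM and then 1182 and 1977 FPKM and did not pass. The falls numbered 2 without any one of the 4 libraries.

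In the cell cycle list 10 of 46 genes rose (21.7%, against 17.4% of all genes tested) and 9 fell (19.6%, against 8.42%), with a median of 0.17 against 0.23. Ccne1, cyclin E1, rose from 1.67 and 2.75 FPKM to 153 and 134 FPKM, by 5.51 (SE 0.38, limma adjusted p = 1.67e-08). Cdc25c, a phosphatase that starts mitosis, rose from 3.51 and 1.84 FPKM to 79.7 and 60.6 FPKM, and Cdkn1a, the inhibitor p21, from 2.13 and 0.592 FPKM to 35.8 and 50.8 FPKM. Ccnb2, cyclin B2, went the other way, from 167 and 145 FPKM to 26.9 and 19.3 FPKM (limma log2 difference -2.72, SE 0.61, adjusted p = 0.00294). The falls numbered 4 without WT 1-cell replicate 1, WT 1-cell replicate 2 or WT 2-cell replicate 2, and the rises 6 without WT 1-cell replicate 1.

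DNA replication genes rose in 13 of 45 (28.9%, against 17.4% of all genes tested) and fell in 5 (11.1%, against 8.42%). These counts depended most on the settings. Rpa2, of the single-strand binding complex, rose from 24.7 and 23.6 FPKM to 193 and 166 FPKM, and Rfc3, of the clamp loader, fell from 78.6 and 80.1 FPKM to 6.45 and 7.75 FPKM (limma adjusted p = 0.000169 and 0.00025). The rises numbered 1 without WT 1-cell replicate 1, 2 without WT 1-cell replicate 2, 3 without WT 2-cell replicate 1 and 5 without WT 2-cell replicate 2, and the falls 3, 1, 2 and 3. With median-ratio scaling 4 rose and 12 fell, so the direction of the list's count turned.

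RNA polymerase II and its general factors rose in 19 of 55 (34.5%, against 17.4% of all genes tested) and fell in 1 (1.8%, against 8.42%). Polr2h, a subunit shared by the RNA polymerases, rose from 10.7 and 9.43 FPKM to 414 and 280 FPKM, by 4.95 (SE 0.37, limma adjusted p = 3.52e-08). The elongation genes Cdk9 and Ell2 rose too, Cdk9 from 2.32 and 3.11 FPKM to 46.0 and 18.3 FPKM and Ell2 from 6.07 and 4.15 FPKM to 46.8 and 42.2 FPKM. Gtf2b, the initiation factor TFIIB, was the fall, from 743 and 833 FPKM to 131 and 139 FPKM (limma log2 difference -2.53, SE 0.37, adjusted p = 6.99e-05). Without any one library 8 to 11 members rose, 11 rose with median-ratio scaling, and 2 fell without WT 2-cell replicate 2.

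Of 60 spliceosome genes 22 rose (36.7%, against 17.4% of all genes tested) and 8 fell (13.3%, against 8.42%). Snrpb and Snrpd2, which encode Sm proteins, rose from 2.52 and 0.331 FPKM to 66.4 and 55.4 FPKM and from 8.17 and 12.6 FPKM to 312 and 213 FPKM. Lsm3, of the related ring on U6, fell from 360 and 441 FPKM to 64.8 and 70.7 FPKM (limma log2 difference -2.54, SE 0.38, adjusted p = 7.59e-05). Of 44 proteasome genes 10 rose (22.7%, against 17.4% of all genes tested) and 7 fell (15.9%, against 8.42%). Psma7, of the core ring, fell from 419 and 490 FPKM to 20.7 and 27.5 FPKM, while Psmb5, a catalytic subunit of the same core, rose from 4.11 and 3.80 FPKM to 65.6 and 65.8 FPKM (limma adjusted p = 1.38e-05 and 3.52e-05). The spliceosome falls numbered 4 without WT 1-cell replicate 1, 3 without WT 1-cell replicate 2 and 5 without WT 2-cell replicate 2, and 13 with median-ratio scaling, and the proteasome falls 4 without WT 1-cell replicate 1.

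Heat shock proteins and chaperonins rose in 6 of 33 (18.2%) and fell in 3 (9.1%), near the 17.4% and 8.42% of all genes tested. Hsp90aa1, the inducible Hsp90, fell from 1570 and 935 FPKM to 112 and 103 FPKM (limma log2 difference -3.48, SE 0.46, adjusted p = 2.02e-05). Its relative Hsp90ab1 did not pass, at 88.1 and 107 FPKM and then 113 and 91.1 FPKM. Cct6a, of the chaperonin ring, rose from 0.870 and 0.282 FPKM to 82.1 and 74.6 FPKM, and Hspb1, a small heat shock protein, from 2.59 and 7.89 FPKM to 158 and 216 FPKM. Hspa1a and Hspa1b, transient markers of the minor wave, were at 8.49 FPKM or lower in every WT library and did not pass. The falls numbered 1 without WT 1-cell replicate 1, WT 1-cell replicate 2 or WT 2-cell replicate 2.

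Markers of other cells were examined as well. Of 15 cumulus and granulosa genes 3 passed the filter on low values, 1 rose (Tnfaip6) and 1 fell (Cyp19a1), and the summed FPKM of the list was 11.4 and 19.4 at the 1-cell and 13.1 and 25.5 at the 2-cell stage. Of 13 sperm genes 6 were tested and 1 rose, Ldhc (16.7%, near the 17.4% of all genes tested). The sperm list summed to 36.8 and 41.1 FPKM and then to 58.5 and 67.1 FPKM. Blood cell genes summed to 0.10 and 0.94 FPKM and then to 76.9 and 148. Of 4 tested 3 rose (75.0%, against 17.4% of all genes tested). These 4 passed the filter on low values through 2-cell libraries only, which favours a rise, so the count adds no support. Hba-a1 went from 0 in both 1-cell libraries to 20.9 and 46.0 FPKM, and Hba-a2 from 0.101 and 0 FPKM to 20.9 and 49.8 FPKM. Cd74 went from 0 in both to 22.0 and 51.1 FPKM. The beta globin genes Hbb-bs and Hbb-bt and the leukocyte marker Ptprc were at 0 in all 4 libraries. In the mutant 2-cell polyA libraries Hba-a1 measured 3.42 to 532 FPKM (median 22.8) and Cd74 5.81 to 62.8 FPKM (median 20.4). Each WT library is labelled as a single embryo, and whether these RNAs came from the embryo or from other cells was not tested. In total RNA Cd74 measured 0 in both and then 7.47 and 4.17 FPKM, and Hba-a2 0 in both and then 1.73 and 1.16 FPKM.

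The 2 WT 2-cell embryos differed in genes of the Y chromosome. Eif2s3y measured 46.5 and 0 FPKM, Uty 17.8 and 0.00213 FPKM and Zfy2 13.3 and 0 FPKM in replicates 1 and 2, and Xist, the X inactivation RNA, 0 and 3.79 FPKM. At the 1-cell stage Eif2s3y and Zfy2 were at 0 in both libraries. None of these passed the test, since the 2-cell replicates lay apart. Their part in the other differences between the 2 replicates was not tested.

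Across the genes that changed, total RNA was set beside polyA RNA once more. Of the 3225 genes that rose in polyA RNA 2830 (87.8%) were higher at the 2-cell stage in total RNA of the B6 controls, where 50.6% of all genes tested were, and their median was 1.12 there against 2.74 in polyA RNA. Of the 1559 genes that fell 1494 (95.8%) were lower in total RNA, with medians of -1.36 and -2.23. The 2 sets of libraries share no sample. In the lists, the members that rose had higher medians in polyA than in total RNA in each case. They were close together for the 2-cell genes (4.24 and 4.10). They were far apart for the large ribosomal subunit (2.69 and 0.60), the nuclear respiratory chain (2.32 and 0.46) and the proteasome (2.91 and 0.30). All genes compared in this paragraph were chosen by their polyA values, which favours larger differences in polyA RNA. Over all tested members the medians were 3.62 in polyA and 3.89 in total RNA for the 2-cell genes. They were 2.63 and 0.42 for the large ribosomal subunit, 0.93 and -0.83 for the nuclear respiratory chain and 0.20 and -1.03 for the proteasome.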

How the data were processed

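RNA of single WT embryos was read by the authors in non-stranded polyA libraries (SMARTer Ultra Low Input cDNA, Nextera XT), per the labels' protocols, so overlapping and antisense genes cannot be told apart. The deposited values are FPKM, made by the authors with HISAT2 2.1.0, StringTie 1.3.3b and mm10, per the submitters' processing notes. The annotation is not given in the sources used here. Of 46078 genes, 45143 (98.0%) were matched by identifier to GENCODE M21 on mm10 for positions and types.

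From these, values were put on a log2 scale after adding a pseudocount of 1, and the 18506 genes that reached 1 FPKM in 2 or more of 16 polyA libraries were kept. limma 3.58.1 (R 4.3.3, statmod 1.5.0) fitted 1 mean per group over all 16 libraries, with trend and robust moderation, tests were two-sided, and p-values were adjusted by Benjamini-Hochberg over the 18506 genes. Each gene has 1 spread for both stages. The fit was tested on simulated data.

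The compared groups, gene lists and tests were chosen with earlier results of these data known. The rule for named genes took the 4 markers, the 10 largest rises and falls among genes with a group mean of at least 10 FPKM (predicted models and pseudogenes left out), the 5 highest genes per stage, the 3 largest rises and falls of each list, and all members of lists of 13 or fewer. Some genes that the rule takes are not reported here. Other genes named were chosen after their values were seen, as were the promoter letters. Alternatives were another pseudocount, filter, scaling, choice of fitted libraries or moderation, the replicate number as a block, and leaving out each WT library.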

Additional observations from a re-analysis of the deposited data

How the results depend on the processing

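The 3225 rises and 1559 falls were recomputed under 13 alternatives, and no gene called both ways changed direction. Rises came to 2024 and falls to 738 without WT 1-cell replicate 1, the rises' range over the 4 left-out libraries was 2024 to 2421 and the falls' 694 to 901, and median-ratio scaling gave 2355 falls. Of these calls, 1717 rises and 502 falls were kept whichever WT library was left out. The lone library of a stage was then assumed to vary like the other groups. The other alternatives gave between 2927 and 3668 rises (2805 with median-ratio scaling) and between 1307 and 1923 falls. The pairing of the replicate numbers was checked: libraries with 1 number did not deviate together (r = -0.00015 across genes), and with the replicate block 3179 genes rose and 1511 fell. Without counts, the depth and the counting error of single values are unknown, and low values are the least certain.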
